A study of Solanum lycopersicum with 36 samples.

Results

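Uncapped transcripts of tomato leaves (Solanum lycopersicum, cultivar HeinZ 1706) were compared between 4 h and 0 h of darkness. The comparison rests on 6 of the 36 libraries of the series, namely 3 of the group Dark 4h and 3 of the group Dark 0h, chosen by their labels as the GMUCT libraries of these times. GMUCT, a genome-wide map of uncapped and cleaved RNA, sequences RNA from 5' ends that carry no cap. Plants of both groups were 4 weeks old, of 1 genotype, and had grown at 25 °C in a cycle of 12 h light and 12 h dark. No treatment other than the time of sampling is given. The other libraries are GMUCT at Light 0h, Light 4h, Light 8h and Dark 8h, and mRNA from polyadenylated RNA at all 6 times, with 3 libraries each. The hour in a label is taken as the time spent in that phase. Whether replicates are separate plants is not stated in the labels, and the p-values reflect only how far these samples differ, a spread that may be technical.

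An mRNA is protected by a cap at its 5' end. Removal of the cap exposes the body of the transcript to exonucleases that digest it from that end, and small RNAs or endonucleases can cut it internally, which also leaves an uncapped fragment. The abundance of uncapped RNA of a gene therefore depends both on how much mRNA there is to decay and on how fast the uncapped fragments are made and removed. In leaves, the mRNAs of many genes of photosynthesis, carbon metabolism and the circadian clock are made at set times of the day. Genes are known here by identifier alone, without names, so no function is assigned to any gene below and the tissue could not be checked against marker genes. The first 2 digits of an identifier give its chromosome.

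Gene counts of the 6 libraries summed to between 15739253 and 19269650 in Dark 4h and between 16456505 and 19122158 in Dark 0h. Replicate 2 of Dark 4h stood apart in its alignments, with 40.2% of its reads placed at several positions, against 13.0 and 13.8% in the other Dark 4h libraries and 11.9 to 26.6% in Dark 0h. These reads were not counted in genes. The share of reads in overlapping genes, also not counted, was lower at Dark 4h, at 0.115 ± 0.031% against 0.397 ± 0.115% at Dark 0h, and the groups did not overlap (SD, n = 3 each; 2-sided exact permutation test, p = 0.1, the smallest that 3 against 3 allows). The part of these unassigned reads in the results below was not tested. Log2 levels correlated at r between 0.957 and 0.980 within Dark 4h, between 0.954 and 0.967 within Dark 0h, and between 0.899 and 0.945 across groups. Replicate 3 of Dark 4h was the library of its group nearest to Dark 0h, at r between 0.930 and 0.945.

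The Dark 0h libraries did not match the mRNA of their own label. Over 9880 genes of at least 10 CPM (read counts scaled to a common library size) in both assays, the deviations of each Dark 4h library from the gene means correlated best with mRNA at Dark 4h (r = 0.634 to 0.653). Those of all 3 Dark 0h libraries correlated best with mRNA at Light 8h (r = 0.542 to 0.594), and at r between -0.116 and 0.029 with mRNA at Dark 0h. A time difference between the assays and a difference in sampling or labelling cannot be told apart here. Every result below rests on Dark 0h, so the genes called in GMUCT were also counted with the libraries of Light 8h in its place. This is given for the numbers of genes only, and not for the ratio, the correlations with mRNA or the named genes.

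Uncapped RNA of 25.8% of the genes tested changed between Dark 0h and Dark 4h, with falls deeper than rises. Of 34075 identifiers, 24994 had counts in at least 1 of the 6 libraries and 20696 passed the filter on low counts. At Dark 4h, 2645 of these genes were higher and 2694 were lower than at Dark 0h by edgeR's quasi-likelihood test (Benjamini-Hochberg adjusted p under 0.05), which is 12.8% and 13% of the genes tested. The counts of the 2 directions were close with this scaling (TMM), while 2388 genes were higher and 3012 lower with RLE scaling, and 2732 and 3443 by DESeq2. A change of at least 2-fold was found in 710 of the higher genes (3.43% of the tested) and in 1235 of the lower ones (5.97%). The median log2 change was 0.73 among the higher genes, with quartiles of 0.55 and 1.03, and -0.93 among the lower genes, with quartiles of -1.53 and -0.63. Over all genes tested it was -0.01. With Light 8h in place of Dark 0h, 2857 genes were higher and 2741 lower, 1069 and 1439 of them by at least 2-fold.

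The asymmetry grew with the size of the change. At least 4-fold, 84 genes were higher and 428 lower. At least 8-fold, the counts were 21 and 181, and at least 16-fold 2 and 97. In 23 identifiers every Dark 0h library had 10 or more reads while no Dark 4h library had more than 3, and the opposite was seen in 2. The size of the fold is uncertain in such genes, and the counts by fold include those of them that were called. Libraries of the 2 groups did not overlap in 35.9% of all genes tested, and in 2478 of the genes called higher and 2500 of those called lower. Single libraries weighed on the counts. Without replicate 2 of Dark 4h, the library with the most reads at several positions, 1845 genes were higher and 1660 lower, and without replicate 3 of Dark 0h 1858 were higher. A fit of the 6 libraries alone called 1401 higher and 1440 lower.

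**Figure D1:**
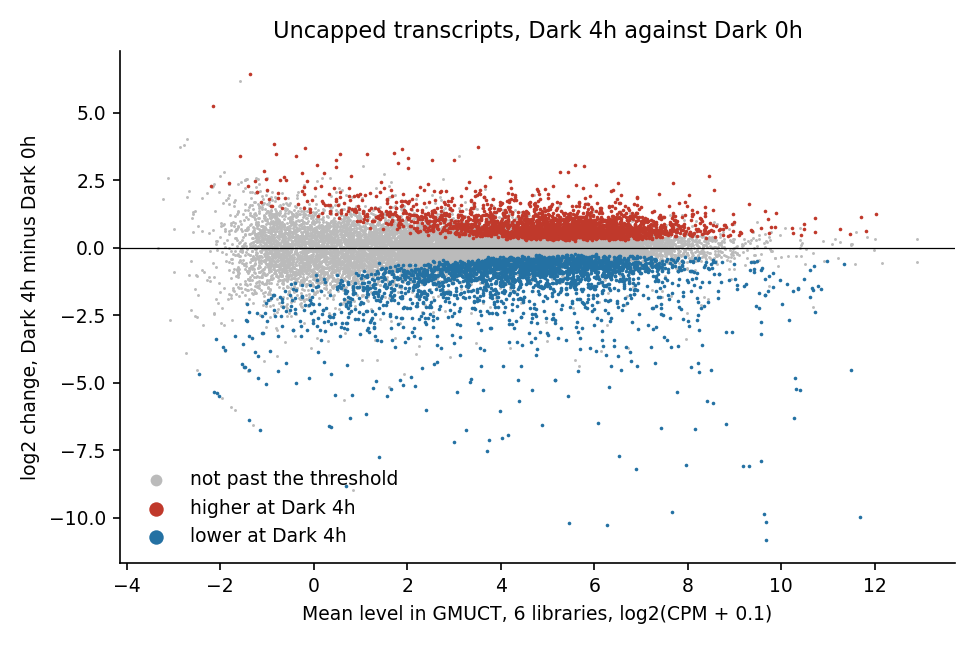
Fitted log2 change of GMUCT signal (Dark 4h minus Dark 0h, vertical) against the mean level over the 6 libraries (horizontal, log2 scale) for 20696 genes. The 2645 genes called higher (red) reach few large changes, and the 2694 called lower (blue) extend to -10.81.

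Changed genes were found at all levels, but their direction differed between levels. CPM is not corrected for transcript length. Among the 10696 genes of 10 to 100 CPM, 16.8% were higher and 15.1% lower, and among the 1803 genes of 100 to 1000 CPM 23.6% were higher and 16.8% lower. Of the 68 genes above 1000 CPM, 17.6% were higher and 35.3% lower, and 20 of the 24 lower genes changed at least 2-fold. Of the 6033 genes of 1 to 10 CPM, 6.12% were higher and 10.9% lower. Below 1 CPM, where few reads limit the test, 1.96% of 2096 genes were higher and 4.53% lower, all of them by at least 2-fold.

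**Figure D2:**
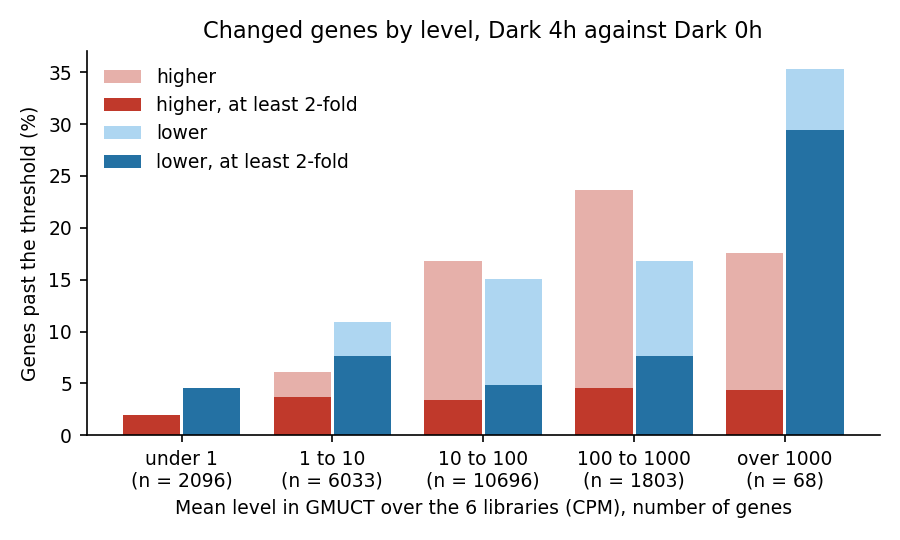
Share of genes past the threshold (vertical, %) in 5 classes of mean GMUCT level (horizontal, CPM), higher at Dark 4h in red and lower in blue, with the part of at least 2-fold in the darker shade. Only in the class over 1000 CPM did the lower genes pass 30% (35.3% of 68 genes).

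The genes called lower and higher were 13% and 12.8% of the genes tested. Of the plain total of reads counted in genes, the genes called lower held 10.9, 10.5 and 11.6% in the 3 Dark 4h libraries. In the Dark 0h libraries they held 26.8, 24.9 and 26.5%. The genes called higher held 25.8, 26.9 and 25.2% at Dark 4h, against 13.6, 15.5 and 14.1% at Dark 0h. Neither share overlapped between the groups, which follows from how the genes were chosen and is given as a description. The 1235 genes lower by at least 2-fold held 3.76 ± 0.54% at Dark 4h, against 15.3 ± 0.92% at Dark 0h (SD, n = 3 each). Among all 2694 lower genes, the 50 with the most signal at Dark 0h held 36.5% of that set's TMM-scaled CPM there. The 100 most abundant genes of each library, whichever they were, took 17.9 ± 0.49% of gene counts at Dark 4h and 20.6 ± 1.19% at Dark 0h, without overlap (2-sided exact permutation test, p = 0.1, the smallest possible).

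Of the genes with a mean of at least 100 CPM over the 6 libraries, the largest falls went to almost no signal. gene:Solyc02g070940.1, on chromosome 2, had 1.44, 0.288 and 0.940 CPM at Dark 4h, against 1792, 1238 and 1892 CPM at Dark 0h (a log2 change of -10.81 ± 0.53 SE, adjusted p = 1.11e-09). Solyc03g115900, on chromosome 3, had 1.81, 0.518 and 1.88 CPM at Dark 4h, against 1884, 1263 and 1770 CPM at Dark 0h (-10.16 ± 0.48, adjusted p = 1.05e-09). All Dark 4h libraries thus lay far below all Dark 0h libraries, and replicate 2 was the lowest of each group in both genes. The mRNA of these genes was at 4.08 ± 2.99 and 6.60 ± 3.28 CPM at Dark 4h, and at 41.0 ± 16.5 and 83.9 ± 51.6 CPM at Dark 0h (SD, n = 3 each). At Light 8h it had been at 622 ± 146 and 1281 ± 264 CPM.

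The largest rises at this level were smaller. Solyc11g069700, on chromosome 11, had 582, 462 and 784 CPM at Dark 4h, against 95.7, 108 and 83.6 CPM at Dark 0h (a log2 change of 2.67 ± 0.37 SE, adjusted p = 0.00013). Its mRNA was at 345, 431 and 483 CPM at Dark 4h, against 557, 556 and 251 CPM at Dark 0h (adjusted p = 0.794), and its values overlapped. These Dark 4h values came from 2203, 7493 and 10884 reads, so replicate 1 of mRNA at Dark 4h was sequenced less deeply. Solyc11g010380, also on chromosome 11, had 349, 300.3 and 386 CPM at Dark 4h, against 58.2, 56.8 and 82.3 CPM at Dark 0h (2.39 ± 0.17, adjusted p = 9.17e-08). Here mRNA rose as well, with 287, 252 and 238 CPM against 68.1, 66.9 and 67.0 CPM (log2 change 1.94, adjusted p = 2.10e-07). The change in the ratio of GMUCT to mRNA passed in the first (adjusted p = 5.66e-05) and not in the second (adjusted p = 0.0978, or 0.0209 without replicate 3 of Dark 0h), and the 2 genes were not tested against each other.

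**Figure D3:**
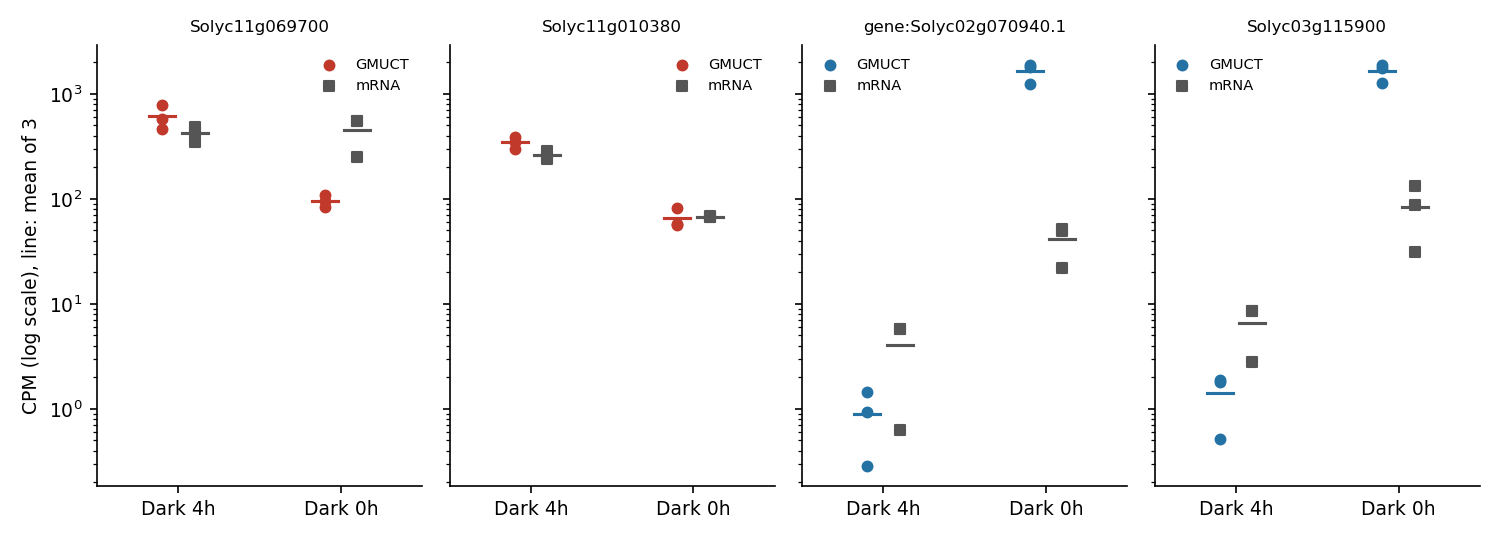
CPM (vertical, log scale) in each library of Dark 4h (left) and Dark 0h (right) for the 2 genes with the largest rise and the 2 with the largest fall among genes of at least 100 CPM, GMUCT as coloured circles and mRNA as grey squares, with the mean of 3 as a line. The GMUCT values of the groups do not overlap in any of the 4 genes, and the mRNA of Solyc11g069700 does.

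What the changed genes did at the other times of the day was read from GMUCT libraries whose levels did not enter the contrast, although they shared its fit and its estimate of the spread. Among Light 0h, Light 4h, Light 8h and Dark 8h, the 1235 genes lower by at least 2-fold had their highest GMUCT level at Light 8h in 57.2% and at Light 4h in 39.0%, against 27.9 and 25.8% of all genes tested. Their lowest level was at Light 0h in 49.4% and at Dark 8h in 44.0%. The 710 genes higher by at least 2-fold were the reverse, with the highest level at Light 0h in 56.8% and at Dark 8h in 39.0%, and the lowest at Light 8h in 68.0% and at Light 4h in 29.2%. Among these times, which leave out Dark 0h and Dark 4h, the genes that lost signal were thus mostly highest at Light 4h or Light 8h. Those that gained were mostly highest at Light 0h or Dark 8h.

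Most of the changed genes also passed in a comparison that shares no library with the first, though both come from 1 fit. Dark 8h against Light 8h called 3450 genes higher and 3333 lower in GMUCT (16.7% and 16.1% of the genes tested, 32.8% together). Of the genes higher at Dark 4h than at Dark 0h, 1903 were also higher at Dark 8h than at Light 8h, which is 71.9% of the first list and 55.2% of the second, and 4 were lower. Of the genes lower at Dark 4h, 1929 were lower in the second comparison too, 71.6% of the first list and 57.9% of the second, and 19 were higher. Their median log2 change there was 0.71 for the higher and -0.89 for the lower genes, against 0.00 over all genes tested. A fit of only the 6 libraries of each comparison left 1202 and 1165 genes shared.

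The neighbouring steps were smaller in GMUCT. Dark 8h against Dark 4h called 1.81% of genes higher and 2.38% lower (4.19% together), and Dark 0h against Light 8h 4.67% and 4.01% (8.67% together). These comparisons share libraries with Dark 4h against Dark 0h, so their values are only set side by side. For the genes higher by at least 2-fold, the median log2 change was 0.13 for Dark 8h minus Dark 4h and -0.27 for Dark 0h minus Light 8h. For the genes lower by at least 2-fold, it was -0.14 and 0.21. Of the 97 genes lower by at least 16-fold, 7 were higher and 13 lower at Dark 8h than at Dark 4h.

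Among genes that passed both comparisons in 1 direction, gene:Solyc03g005760.1 on chromosome 3 had a GMUCT signal of 0.357, 0.267 and 0.896 CPM at Dark 8h, against 8168, 7677 and 7977 CPM at Light 8h. It had 9.76, 2.70 and 6.87 CPM at Dark 4h, against 7073, 6188 and 6512 CPM at Dark 0h (a log2 change of -9.99 ± 0.48 SE, adjusted p = 1.05e-09). gene:Solyc02g071000.1 on chromosome 2 had no read in any Dark 8h library, and 356, 278 and 402 CPM at Light 8h. Its read counts were 2, 0 and 2 at Dark 4h, against 2230, 1411 and 1022 at Dark 0h, so no fold is given. In both genes Dark 4h and Dark 8h lay far below Dark 0h and Light 8h.

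Among genes that rose in both comparisons, Solyc04g007470 and Solyc08g007130 had the largest rises at Dark 8h against Light 8h. Solyc04g007470, on chromosome 4, had 73.6, 122 and 97.9 CPM at Dark 8h, against 0.964, 0.459 and 0.507 CPM at Light 8h (log2 change 7.23, adjusted p = 4.48e-10). It had 77.6, 69.1 and 95.6 CPM at Dark 4h, against 20.1, 14.8 and 13.5 CPM at Dark 0h (2.32 ± 0.25 SE, adjusted p = 1.48e-05). Its level at Dark 0h was already above that at Light 8h, and its level at Dark 4h overlapped that at Dark 8h. Solyc08g007130, on chromosome 8, had 31.7, 16.9 and 35.2 CPM at Dark 4h, against 6.45, 6.46 and 11.8 CPM at Dark 0h (1.76 ± 0.37, adjusted p = 0.00272), and 184, 104 and 212 CPM at Dark 8h.

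**Figure D4:**
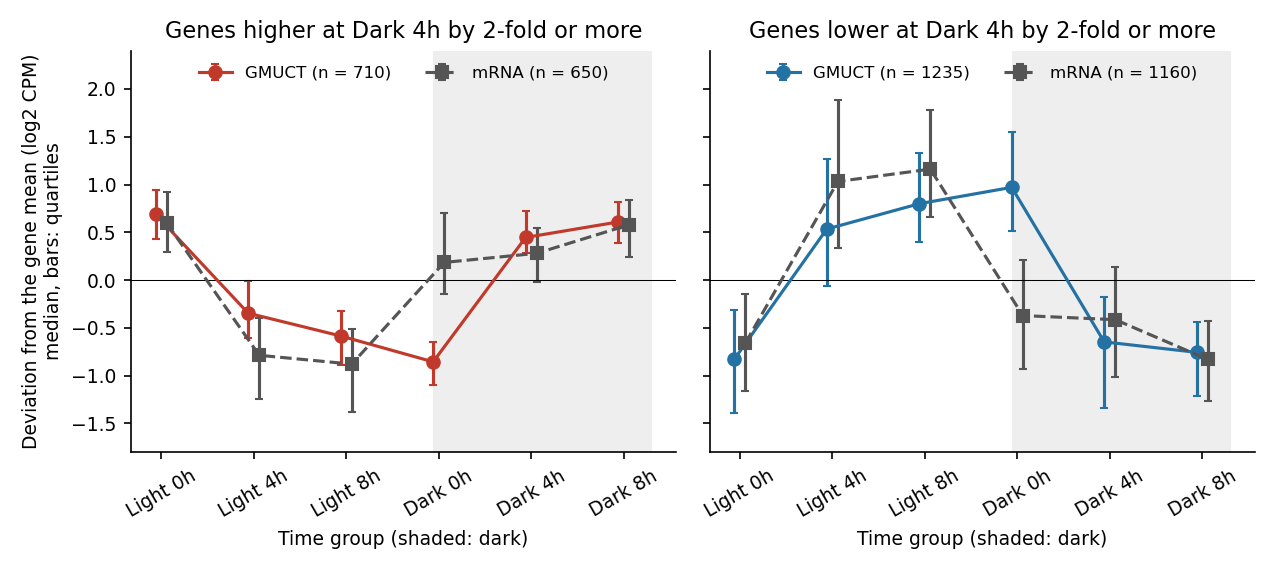
Median deviation of a gene from its own mean over the 6 times (vertical, log2 CPM, bars from the first to the third quartile) at each time (horizontal, dark shaded), for GMUCT (circles) and mRNA (squares), in the 710 genes higher (left) and 1235 genes lower (right) at Dark 4h than at Dark 0h by at least 2-fold. At Dark 0h the GMUCT medians are -0.86 and 0.97 while the mRNA medians are 0.18 and -0.37.

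The mRNA of most of these genes differed between Dark 0h and Light 8h, and its median change between Dark 4h and Dark 0h was small. Of the 1160 genes lower by at least 2-fold in GMUCT that were also tested in mRNA, 788 (67.9%) had lower mRNA at Dark 0h than at Light 8h and 51 had higher mRNA, where 22.7% of all mRNA tests were called lower and 21% higher (43.7% together). At Dark 4h against Dark 0h, 219 of them (18.9%) had lower mRNA and 168 (14.5%) higher mRNA, where 11.1% and 12.6% of all tests were called (23.7% together), and the median log2 change was -0.002. Of the 650 genes higher by at least 2-fold, 430 (66.2%) had higher mRNA at Dark 0h than at Light 8h and 17 had lower mRNA. At Dark 4h against Dark 0h, 124 of them (19.1%) had higher and 108 (16.6%) lower mRNA, with a median of 0.08. Genes with the deepest falls in GMUCT differed from this, since of 88 tested in mRNA among those lower by at least 16-fold, 46 (52.3%) had lower mRNA at Dark 4h in that comparison, with a median log2 change of -1.74. At Dark 4h against Light 8h, mRNA was lower in 816 (70.3%) of the 1160 and higher in 448 (68.9%) of the 650, against 20.7% and 20% of all tests (40.7% together). In bulk leaf RNA, a change in the number of cells that express a gene and a change in RNA per cell cannot be told apart.

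The medians of single libraries showed the same order. Relative to the Light 8h mean of each gene, the median mRNA level of the 1160 genes was -1.70, -1.36 and -1.55 (log2) in the Dark 4h libraries, against -1.55, -1.35 and -1.69 in the Dark 0h libraries. Their median GMUCT level was -1.53, -1.59 and -1.18 at Dark 4h, against 0.15, 0.04 and 0.21 at Dark 0h. For the 650 higher genes, mRNA was at 1.20, 1.09 and 1.19 at Dark 4h, against 1.10, 1.04 and 1.03 at Dark 0h. Their GMUCT medians were 1.03, 1.09 and 1.01 at Dark 4h, against -0.29, -0.13 and -0.30 at Dark 0h. The mRNA medians of the 2 times overlapped. That the GMUCT medians lay apart is fixed by how the genes were chosen and is a description only. Over all 19161 genes tested in both assays, the medians of these 12 libraries lay between -0.06 and 0.02.

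Across genes, the GMUCT change from Dark 0h to Dark 4h correlated more with mRNA changes counted from Light 8h than with the mRNA change of the same interval. Over the 19161 genes, r was 0.04 with the mRNA change of Dark 4h minus Dark 0h (Spearman's rho 0.00), 0.48 with that of Dark 0h minus Light 8h (rho 0.50), and 0.57 with that of Dark 4h minus Light 8h (rho 0.55). Over the 9880 genes of at least 10 CPM, r was 0.17, 0.58 and 0.73. The first of these correlations had no settled sign, being -0.03 over all genes without replicate 3 of Dark 4h in GMUCT. The mRNA changes share libraries with one another but none with the GMUCT change. Since genes are not independent of one another, r is given as a description without a test.

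**Figure D5:**
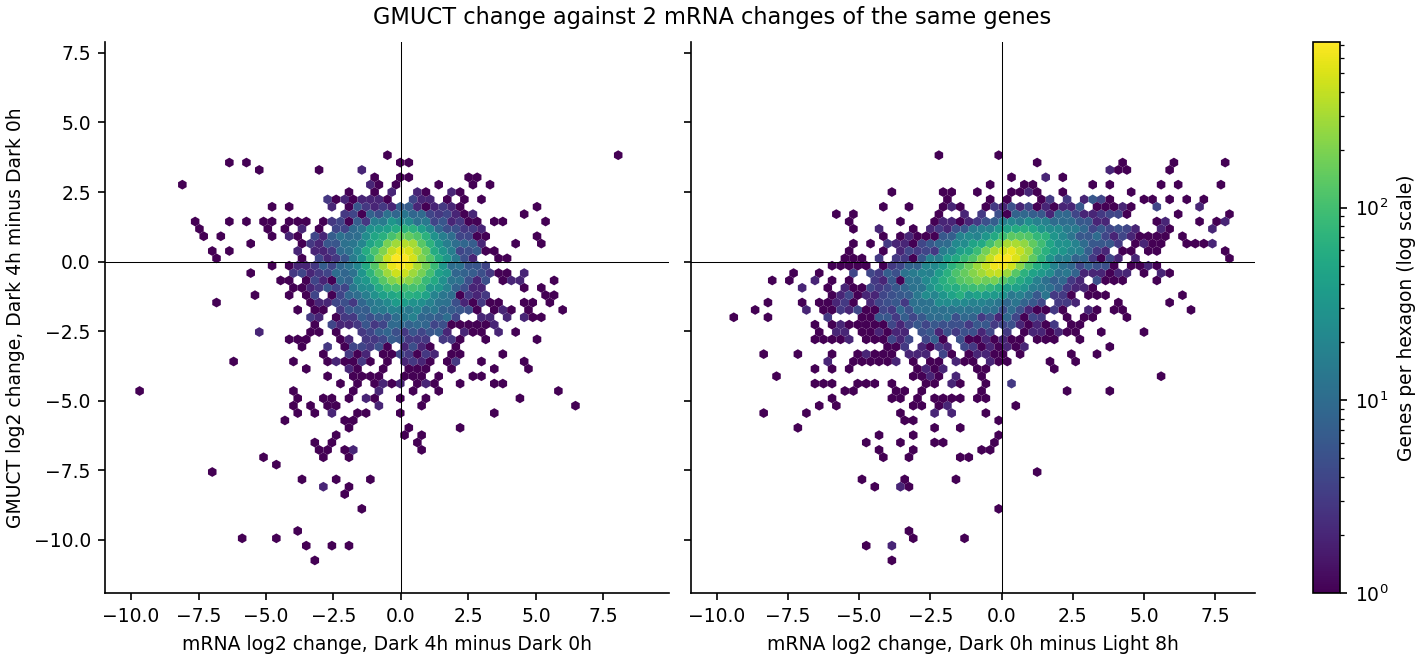
GMUCT log2 change (Dark 4h minus Dark 0h, vertical) against the mRNA log2 change of Dark 4h minus Dark 0h (left) and of Dark 0h minus Light 8h (right) for 19161 genes, with the number of genes per hexagon on a log colour scale. The cloud is round on the left (r = 0.04) and slanted on the right (r = 0.48).

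When genes were grouped by their mRNA, both steps went with the GMUCT change. Where mRNA was lower at Dark 0h than at Light 8h and did not pass the test afterwards (2927 genes), the median GMUCT log2 change was -0.51, and 38.5% of genes were lower and 0.957% higher. Where mRNA fell in both steps (198 genes), the median was -1.15, and 73.2% were lower and 0 genes higher. Where mRNA fell before Dark 0h and rose after it (1303 genes), GMUCT still had a median of -0.27, with 23.6% lower and 4.68% higher.

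The groups with rising mRNA mirrored this. With higher mRNA at Dark 0h and no later call (2574 genes), the median GMUCT log2 change was 0.43, and 39.4% were higher and 1.40% lower. With higher mRNA in both steps (233 genes) it was 0.76, with 63.1% higher, and with a rise followed by a fall (1189 genes) it was 0.24, with 20.7% higher and 6.14% lower. Among the 9085 genes with no call in either step, 9.05% were higher and 7.75% lower in GMUCT, with a median of 0.02. Where mRNA had not passed before Dark 0h, a later fall (748 genes) went with a GMUCT median of -0.23 and a later rise (904 genes) with 0.26.

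The ratio of GMUCT to mRNA, tested as the difference between the 2 assays in their change, was higher at Dark 4h than at Dark 0h in 2551 genes and lower in 2526 (13.3% and 13.2% of 19161 genes, 26.5% together; edgeR quasi-likelihood test, adjusted p under 0.05). Among the genes with GMUCT lower by at least 2-fold the ratio was lower in 721 of 1160, and among those with GMUCT higher by at least 2-fold it was higher in 413 of 650. These sets were chosen on the GMUCT change, which is part of the ratio, so the counts are descriptions. A fit of the 12 libraries of these times alone gave 1369 higher and 1801 lower.

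At the ends of the ratio test lay genes whose mRNA and uncapped RNA passed in opposite directions. In others uncapped RNA fell more than mRNA did, and in Solyc08g029000 uncapped RNA rose while mRNA did not pass. Solyc09g089930, on chromosome 9, rose in GMUCT to 67.0, 49.2 and 46.0 CPM at Dark 4h, against 13.6, 11.6 and 33.2 CPM at Dark 0h (adjusted p = 0.00615). Its mRNA fell to 2.35, 1.38 and 1.15 CPM at Dark 4h, against 32.0, 54.5 and 31.9 CPM at Dark 0h, and the ratio rose by 6.24 ± 0.50 (log2, SE; adjusted p = 9.92e-10). Without replicate 3 of Dark 0h its GMUCT log2 change was 2.10, against 1.47 with all libraries. Solyc04g077640, on chromosome 4, was its opposite, with a GMUCT signal of 23.5, 20.4 and 17.8 CPM at Dark 4h, against 85.6, 50.9 and 36.8 CPM at Dark 0h. Its mRNA rose to 73.1, 81.6 and 84.9 CPM at Dark 4h, against 2.94, 1.63 and 3.64 CPM at Dark 0h, and the ratio changed by -6.35 ± 0.50 (adjusted p = 7.06e-10). At Light 8h that mRNA had stood at 120 ± 50.0 CPM, so it was low at Dark 0h between 2 higher times.

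Solyc08g029000, on chromosome 8, had a higher ratio (log2 change 5.19 ± 1.36, adjusted p = 0.00548) with spread replicates (7.88 without replicate 2 of Dark 4h in mRNA), at 85.9, 69.2 and 16.1 CPM in GMUCT at Dark 4h, against 8.64, 13.6 and 13.0 CPM at Dark 0h. Its GMUCT call (adjusted p = 0.0211) was lost when replicate 1 or 3 of Dark 0h or replicate 1 or 2 of Dark 4h was left out (adjusted p between 0.0551 and 0.0809). gene:Solyc02g071010.1, on chromosome 2, had a lower ratio (-6.14 ± 0.89, adjusted p = 1.05e-05), with 2.45, 2.30 and 9.15 CPM in GMUCT at Dark 4h, against 2082, 832 and 892 CPM at Dark 0h. Without replicate 3 of Dark 4h this ratio changed by -7.08. Its mRNA fell as well, to 11.7 ± 2.66 CPM at Dark 4h, against 45.2 ± 22.7 CPM at Dark 0h (log2 change -1.92, adjusted p = 0.000643). The mRNA of Solyc08g029000 did not pass (adjusted p = 0.053). In gene:Solyc02g070940.1 and Solyc03g115900, described above, the ratio changed by -7.56 and -6.52 with lower GMUCT and lower mRNA.

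Both assays passed the threshold in opposite directions about as often as mRNA was called over all genes. Of 2582 genes with higher GMUCT that were tested in both assays, 268 (10.4%) had lower and 451 (17.5%) higher mRNA. Of 2615 with lower GMUCT, 346 (13.2%) had higher and 403 (15.4%) lower mRNA. Over all 19161 genes mRNA was higher in 12.7% and lower in 11.1%. Solyc04g007000, on chromosome 4, had 84.8, 77.1 and 105 CPM in GMUCT at Dark 4h, against 21.3, 21.96 and 14.3 CPM at Dark 0h (a log2 change of 2.21 ± 0.37 SE, adjusted p = 0.00054). Its mRNA had 318, 165 and 286 CPM at Dark 4h, against 954, 1317 and 1613 CPM at Dark 0h (-2.34, adjusted p = 1.35e-05). Solyc06g053710, on chromosome 6, had 54.1, 56.4 and 44.3 CPM in GMUCT at Dark 4h, against 8.10, 14.1 and 16.8 CPM at Dark 0h, with mRNA at 7.35, 9.90 and 11.0 CPM against 66.5, 46.7 and 58.5 CPM. In both genes mRNA was higher at Dark 0h than at Light 8h (log2 change 3.72 and 4.26).

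The opposite pair was gene:Solyc06g054320.1 and gene:Solyc08g074630.2. On chromosome 6, gene:Solyc06g054320.1 had 1.34, 3.62 and 7.91 CPM in GMUCT at Dark 4h, against 28.4, 21.4 and 15.6 CPM at Dark 0h (a log2 change of -2.34 ± 0.51 SE, adjusted p = 0.00391). Its mRNA was at 1.56, 1.61 and 3.24 CPM at Dark 4h, against 0.176, 0.243 and 0.135 CPM at Dark 0h (adjusted p = 2.85e-05). Without replicate 3 of Dark 4h its GMUCT change was -3.15. gene:Solyc08g074630.2 had widely spread values, with 0.324, 0.115 and 3.46 CPM at Dark 4h, against 9.74, 11.0 and 98.4 CPM at Dark 0h. Without replicate 3 of Dark 0h its log2 change was -2.98 and its adjusted p 0.184, against -4.91 and 0.0293 with all libraries. Its call was also lost without replicate 1 or replicate 2 of Dark 4h (adjusted p = 0.0994 and 0.104), and without replicate 3 of Dark 4h its log2 change was -7.40. Its mRNA had 24, 419 and 58 reads at Dark 4h, against 8, 7 and 12 at Dark 0h, so replicate 2 carried most of that rise.

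Some genes changed in GMUCT while mRNA stayed within 0.25 on the log2 scale between Dark 4h and Dark 0h, at a share near that of all genes. Among genes of at least 10 CPM in GMUCT with no overlap between the groups, these were 795 of 2097 that rose (37.9%) and 595 of 1810 that fell (32.9%), against 36.9% of all 12557 genes at that level. Solyc07g043460, on chromosome 7, fell to 14.6, 11.7 and 71.7 CPM at Dark 4h, against 279, 465 and 487 CPM at Dark 0h (a log2 change of -3.65 ± 0.86 SE, adjusted p = 0.00584). Its mRNA was at 4.55 ± 2.36 CPM at Dark 4h and 4.18 ± 2.14 CPM at Dark 0h, and had been at 261 ± 106 CPM at Light 8h. gene:Solyc11g066670.1, on chromosome 11, had 5.69, 4.77 and 22.4 CPM in GMUCT at Dark 4h, against 61.6, 132 and 212 CPM at Dark 0h (-3.62 ± 0.69, adjusted p = 0.0015), with mRNA at 12.4 ± 5.82 CPM at Dark 4h, 11.0 ± 4.59 CPM at Dark 0h and 326 ± 164 CPM at Light 8h. Without replicate 3 of Dark 4h, the highest of its group in both genes, the GMUCT changes were -4.96 and -4.68. In both genes mRNA was low at Dark 0h relative to Light 8h, whereas uncapped RNA was lower at Dark 4h than at Dark 0h.

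Rises of this kind were led by Solyc03g115920 on chromosome 3, with 107, 97.2 and 51.4 CPM in GMUCT at Dark 4h, against 8.40, 9.58 and 12.6 CPM at Dark 0h (a log2 change of 3.06 ± 0.33 SE, adjusted p = 1.23e-05). Its mRNA was at 52.0 ± 8.44 CPM at Dark 4h and 58.7 ± 3.17 CPM at Dark 0h, and at 19.7 ± 4.81 CPM at Light 8h. gene:Solyc05g026460.1, on chromosome 5, had 18.5, 40.3 and 34.8 CPM in GMUCT at Dark 4h, against 4.02, 15.7 and 4.51 CPM at Dark 0h (1.94 ± 0.41, adjusted p = 0.00285), with mRNA at 4.96 ± 1.31 CPM at Dark 4h, against 4.55 ± 1.99 CPM at Dark 0h. Without replicate 2 of Dark 0h its GMUCT change was 2.87.

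Genes next to each other by identifier moved together more often than genes further apart. Of 1508 pairs of adjacent tested genes in which both were called, 59.5% changed in the same direction, against 54.2% of pairs 2 places apart, 50.2% at 5 places and 49.5% at 20 places. The correlation of log2 changes was 0.17, 0.08, 0.03 and 0.00 at these distances. Runs of at least 3 adjacent genes called in 1 direction numbered 55 for higher and 92 for lower genes. Of all genes tested, 12.8% were called higher and 13% lower. How many runs these shares alone would give was not computed, so the counts of runs are a description only. The longest run of higher genes held 4 and that of lower genes 9. The run of 9, singled out after its values were seen, lies on chromosome 2 and includes gene:Solyc02g070940.1, gene:Solyc02g071000.1 and gene:Solyc02g071010.1. Its log2 changes lay between -10.81 and -3.69, with a largest adjusted p of 0.0051. The lowest mean level of a member was 0.016 CPM at Dark 4h and 0.302 CPM at Dark 0h, so the folds of its low members are uncertain. The groups did not overlap in all 9 members, against 35.9% of all genes tested. Since the run holds only called genes, this is a description. Together the 9 genes of the run had 13.3 ± 8.58 CPM at Dark 4h, against 4969 ± 1611 CPM at Dark 0h (SD, n = 3 each). Whether neighbours are near-identical copies that share or lose reads is not given in the sources used here, so values of single members of such runs are uncertain. The handling of strand is not stated either, so a gene and an antisense partner that overlaps it cannot be told apart.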

How the data were processed

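Leaf RNA was read as GMUCT libraries (single end, 50 nt) and mRNA libraries. The values deposited by the authors are raw read counts per gene identifier, 1 table per library with 34075 identifiers and 5 rows for reads not assigned to a gene. The submitters' processing notes name HTSeq, STAR 2.4.2a and cutadapt. Settings, strand, build and annotation are not stated there. The 5 rows were kept out of every total and test, and their shares of all reads are given with the libraries. None (0) of the identifiers matched the reference table of 41476 genes, so 12 gene lists written by symbol could not be used and no sequences are shown.

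Counts were fitted with edgeR 4.0.16 in R 4.3.3 (filterByExpr, TMM, glmQLFit, glmQLFTest): 18 GMUCT libraries in 6 group means, 18 mRNA libraries likewise, and all 36 for the ratio, over genes that passed in both assays and with TMM over all libraries. P-values were adjusted by Benjamini-Hochberg over all genes of a test. CPM used TMM-scaled library sizes, log2 CPM a prior count of 2, and the SE is the absolute log2 change divided by the square root of F. Tests were tried on simulated counts. Members, lists and comparisons were chosen with earlier results of these data known. Named genes passed the threshold, did not overlap between groups, averaged at least 10 CPM (also in mRNA, for the ratio, and 100 for the largest GMUCT changes), and were the 2 largest changes in each direction per comparison; a gene taken once was passed over later. For pairs that moved oppositely the product of both changes ranked them. Replicate numbers were not taken to pair the samples. Alternatives are RLE scaling, DESeq2 1.42.0, no filter, fits of only the groups compared, a replicate block and leaving out each library.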

Additional observations from a re-analysis of the deposited data

Results flagged for a closer look

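The GMUCT change between these times (Dark 4h minus Dark 0h) differed from the change in mRNA of the same genes, by the test of the interaction, in 2551 genes with a higher and 2526 with a lower ratio. Among the named genes the ratio changed by 6.24 (log2) in Solyc09g089930, 5.19 in Solyc08g029000, 4.61 in Solyc06g053710, 4.59 in Solyc04g007000, 3.28 in Solyc03g115920 and 2.82 in Solyc11g069700. Smaller rises were 2.27 in Solyc08g007130, 2.04 in Solyc04g007470 and 1.87 in gene:Solyc05g026460.1. The ratio changed by -9.34 in gene:Solyc08g074630.2, -6.35 in Solyc04g077640 and -5.79 in gene:Solyc06g054320.1, where mRNA was higher. At Dark 0h the mRNA of gene:Solyc08g074630.2 had only 8, 7 and 12 reads, and that of gene:Solyc06g054320.1 only 3, 7 and 2. The size of the ratio change is uncertain in these 2 genes. The ratio changed by -7.56 in gene:Solyc02g070940.1, -6.52 in Solyc03g115900, -6.14 in gene:Solyc02g071010.1 and -5.31 in gene:Solyc03g005760.1, where mRNA was lower too. Some Dark 4h libraries had few reads here as well, so these sizes are also uncertain. GMUCT reads were 31, 5 and 19 in gene:Solyc02g070940.1 and 39, 9 and 38 in Solyc03g115900. Reads in mRNA were 4, 101 and 131 in gene:Solyc02g070940.1 and 5, 96 and 157 in gene:Solyc03g005760.1. The values were -3.84 in Solyc07g043460 and -3.82 in gene:Solyc11g066670.1. gene:Solyc02g071000.1 has too few reads at Dark 4h for a fold.

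Reads outside genes also differed. Reads in no annotated feature made up 5.33 ± 0.059% at Dark 4h and 4.17 ± 0.83% at Dark 0h, higher in all 3 Dark 4h libraries than in any Dark 0h library (SD, n = 3 each; 2-sided exact permutation test, p = 0.1, the smallest possible). Their source was not tested.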

How the results depend on the processing

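Under RLE scaling, no filter, DESeq2 and the replicate block, each count of genes run in GMUCT at Dark 4h against Dark 0h, in the overlaps and in the ratio stayed within 1.5 times its value (DESeq2 was run on the first only). Fits of only the groups compared called 1401 genes higher and 1440 lower in GMUCT, left 1202 and 1165 shared with Dark 8h against Light 8h and 854 and 931 shared with mRNA at Dark 0h against Light 8h, and gave 1369 genes of higher ratio. The next 2 settings were chosen after seeing the data. Without the library of each group with the most reads at several positions, 1254 genes were higher and 1397 lower, 796 of these by at least 2-fold. With Light 8h as the reference, 1069 genes were higher by at least 2-fold. TMM within each assay gave 2288 genes of higher and 2680 of lower ratio. With each library left out in turn, genes called numbered 1845 to 2809 higher and 1660 to 2720 lower, and 563 to 999 and 877 to 1556 at 2-fold. Restricting genes to 10 CPM or more changed r to 0.166 with mRNA of the same interval, 0.575 with Dark 0h minus Light 8h and 0.729 with Dark 4h minus Light 8h. Leaving out libraries gave r from -0.033 to 0.07, so that sign was not settled, from 0.441 to 0.492 and from 0.51 to 0.601. By plain totals, as used above, the higher genes held 26.0% and the lower 11.0% of counts at Dark 4h. TMM-scaled CPM gave 23.7 and 10.1 in place of these, as such CPM do not add up to the same total in each library. The cause of the other shifts was not tested.

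A fit with the replicate block (replicate number as a term) called 2731 genes higher and 2754 lower. Deviations of same-numbered Dark 4h and Dark 0h libraries correlated at -0.026, 0.354 and 0.041, against -0.227 to 0.175 for unlike numbers. Replicate 2 thus stood above the unlike pairs, and replicates 1 and 3 did not. The numbers were therefore not taken as pairs in the main fit. Of the named genes' values, gene:Solyc08g074630.2 and Solyc08g029000 lost their call in GMUCT without some libraries. The ratio of gene:Solyc05g026460.1 lost its call without any of 5 libraries (replicate 1 or 3 of Dark 0h or 2 of Dark 4h in GMUCT, or replicate 2 of either time in mRNA; adjusted p 0.0509 to 0.056) and in the fit of 12 (0.105). No direction changed. Few reads limit the test below 1 CPM.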

Other observations

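The changed genes were spread over the genome. By the chromosome in the identifier, between 10.6% (chromosome 8) and 14.0% (chromosome 12) of tested genes rose in GMUCT at Dark 4h, and between 11.7% (chromosome 9) and 14.2% (chromosomes 6 and 7) fell, relative to Dark 0h. Falls of at least 2-fold ranged from 4.48% of the genes tested on chromosome 9 to 7.57% on chromosome 6. The 24 tested genes numbered to chromosome 0 held no call in either direction. Identifiers with the prefix gene: made up 18.8% of the tested genes, 14.9% of all genes called higher and 16.2% of all called lower. They made up 27.9% of those higher by at least 2-fold and 22.4% of those lower by at least 2-fold. Their median level was 4.88 CPM, against 20.3 CPM for the other identifiers. These values were looked at after the comparison had been made and were not tested.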
